A study of Mus musculus with 141 samples.

Results

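Whole lungs of 47 Collaborative Cross (CC) mice, 1 animal per recombinant inbred strain, were ordered by a ciliated-cell score, and the 16 lungs with the highest score were set against the 16 with the lowest. The score was the mean of log2(CPM + 1) of Foxj1, Tekt1 and Rsph1, where CPM is a gene's count scaled to a common library total, after leaving out the ribosomal RNA gene Rn45s. The 32 lungs are 32 of the 141 RNA-seq libraries, which cover lung, liver and kidney of the same animals. All mice were adult males of 8 to 12 weeks, had spent 6 hours on weekdays over 2 weeks in mesh chambers supplied with clean air, and shared 1 diet. Lungs, livers and kidneys were frozen on collection, and total RNA was sequenced after removal of ribosomal RNA. The labels name no transgene, no other agent and no batch. Each group is therefore a mixture of 16 different strains, no strain is replicated, and p-values measure the spread between animals of different strains. The 3 scoring genes chose the groups and were left out of every count that follows.

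Motile cilia are hair-like extensions built on a microtubule skeleton, the axoneme, in which an outer ring of doublet microtubules surrounds a central pair. Outer and inner dynein arms on the doublets are the motors that bend the cilium, and radial spokes, the nexin-dynein regulatory complex and the central pair control their timing. In the airways, multiciliated cells carry many such cilia each and sweep mucus out of the lung, and they share the epithelium with secretory club and goblet cells. Because these genes were read from whole-organ RNA, more ciliated cells and more RNA per ciliated cell cannot be told apart.

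The order of the lungs followed mostly Rsph1, a radial spoke head protein. Rsph1 ranged from 22.2 to 100.4 CPM in the high-score lungs (median 46.7), from 14.8 to 39.9 in the 15 lungs of neither group (median 21.3) and from 6.76 to 19.2 in the low-score lungs (median 11.1). The high and low groups did not overlap in this gene, which the rule used. Foxj1, the master transcription factor of motile ciliogenesis, ranged from 43.5 to 129 CPM in the high-score lungs (median 79.2) and from 23.6 to 108 in the low-score lungs (median 47.7), and here the groups overlapped. The middle lungs, with a Foxj1 median of 75.5, lay next to the high group. Tekt1, a tektin that runs along the doublet wall, had 0 to 3 counts in every lung and so added little to the order.

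Of the 16 lungs with the most Rsph1, 14 were in the high group, against 9 of the 16 lungs with the most Foxj1. The last lung inside the high group, from strain CC039, had a score of 3.73, and the first outside it, from CC027, had 3.72. At the lower border the lung of CC043 scored 3.47 and stayed out, and that of CC061 scored 3.46 and went in. Both borders thus separate lungs of almost the same score.

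**Figure D1:**
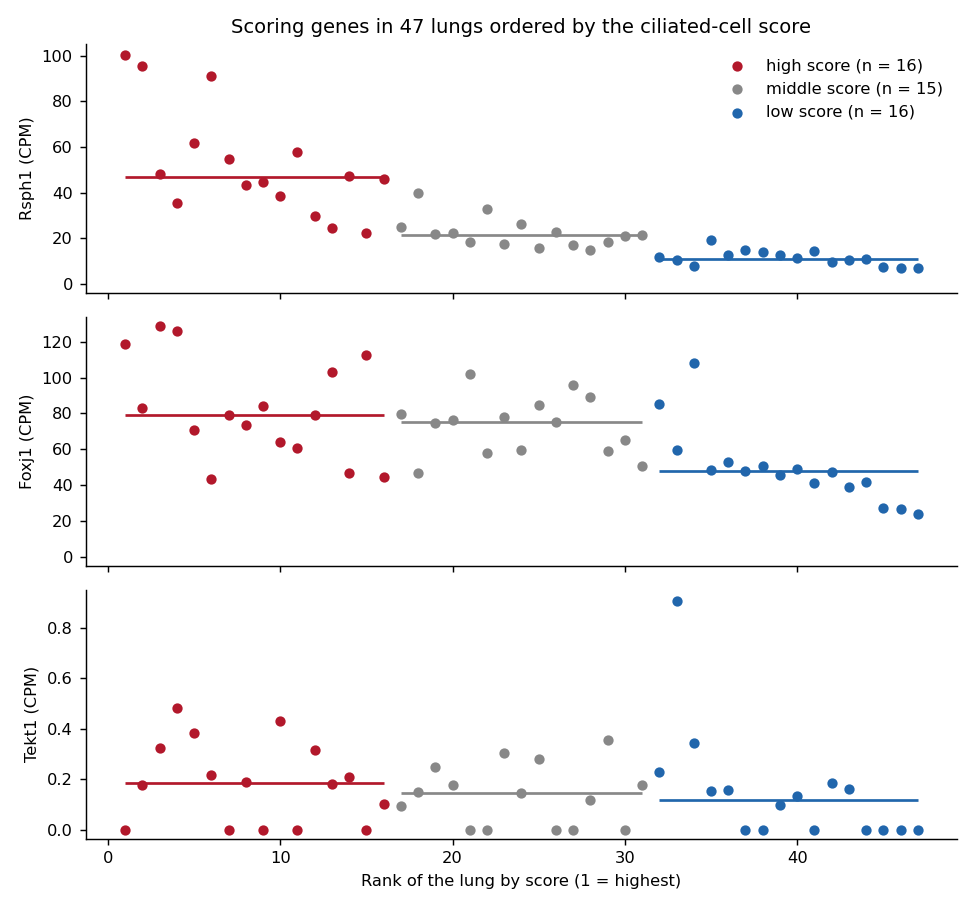
Rsph1, Foxj1 and Tekt1 (CPM of counts without Rn45s, linear axes) in the 47 lungs in order of the score, with 1 point per lung and a line at each group's median. Rsph1 falls in 3 steps (medians 46.7, 21.3 and 11.1), Foxj1 has close medians in high and middle lungs (79.2 and 75.5), and Tekt1 stays under 1 CPM.

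Genes of the cilium that were not used in the score followed only in part the order it gives. Over 200 such genes, the mean of log2(scaled CPM + 1) had a median of 3.81 in the high-score lungs (range 3.27 to 4.52), 3.84 in the middle lungs (3.61 to 4.09) and 3.62 in the low-score lungs (3.19 to 3.93). Scaled CPM are CPM after TMM scaling, which makes the bulk of genes comparable between libraries. The means of the groups were 3.90, 3.87 and 3.61, so the middle lungs lay close to the high ones, above them by median and below them by mean. By this measure 7 of the 16 lungs with the highest mean were in the high group, while 11 of the 16 with the lowest mean were in the low group. A further 4 of those 16 lowest lungs were in the high group. The groups are therefore called high-score and low-score lungs here, not lungs with many and with few ciliated cells.

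Library make-up differed between the groups. Lars2, a mitochondrial leucyl-tRNA synthetase gene, took a median of 7.17% of the counts without Rn45s in the high-score lungs (range 0.526 to 33.7%) and 18.2% in the low-score lungs (0.0478 to 66.6%), a difference in means of -12.8 percentage points, high minus low (two-sided permutation test, p = 0.0413). Lars2 counts are part of the total that scales the score, so this test is not independent of the rule. Over all 47 lungs the Spearman correlation of the Lars2 share with the score was -0.24. The lungs with the 4 lowest scores, from CC032, CC015, CC055 and CC059, each had over 40% of these counts on Lars2, and where 1 gene fills a library the CPM of the others is lower by construction. Rn45s itself took a median of 17.1% of all counts in the high-score and 35.2% in the low-score lungs (permutation p = 0.0945 on the means). The lung with the largest Lars2 share, from CC015 (66.6%), also had the largest Rn45s share (71.7%). That with the smallest Lars2 share, from CC035 (0.0478%), had 0.975% on Rn45s. Whether the reads counted on Lars2 come from messenger RNA of this enzyme was not tested. Totals without Rn45s ran from 2320936 to 10957038 counts in the high-score and from 2923849 to 13227557 in the low-score lungs (permutation p = 0.459 on log2 totals). Without TMM scaling, the median of all genes was 0.28 higher (log2) in the high-score lungs, against 0.0071 with it, so fold changes are given after TMM scaling. With the 4 lungs over 40% Lars2 left out of the low group, the median log2 fold change of the ciliary genes was 0.40, against 0.36 with all lungs. Fits with the share of Rn45s as a covariate, or without the lungs over 40% Lars2, are among the alternatives below and called no gene. How much of a single gene's difference goes with library make-up was not tested beyond these.

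**Figure D2:**
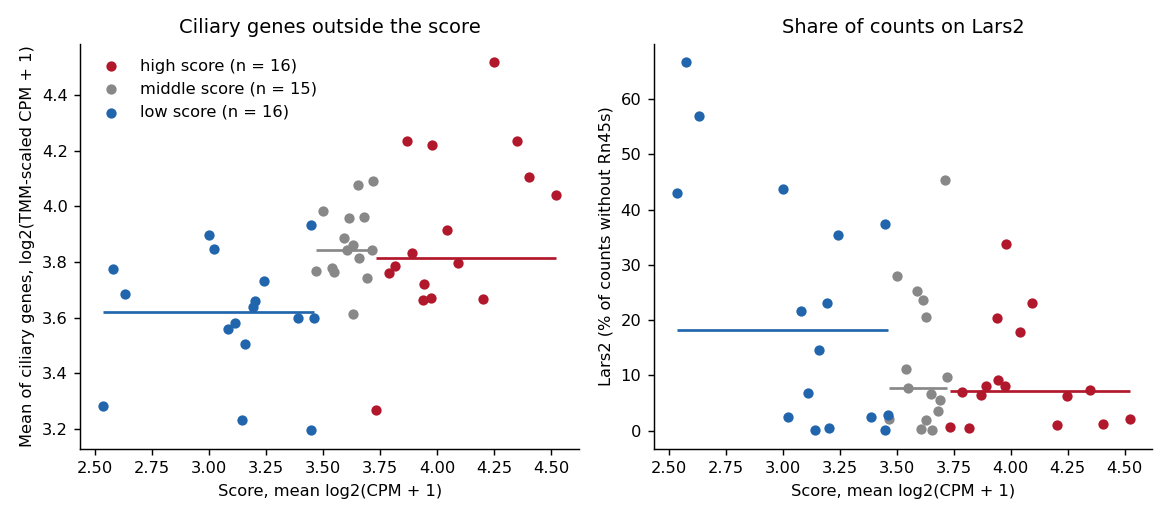
Left, mean log2(TMM-scaled CPM + 1) of the 200 ciliary genes outside the score against the score, with 1 point per lung and lines at group medians (3.81 high, 3.84 middle, 3.62 low). Right, the share of counts without Rn45s on Lars2, which exceeds 40% in the 4 lungs of lowest score and in 1 middle lung.

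Many genes of the multiciliated cell are controlled by RFX factors, which bind the X-box, and by FOXJ1 itself, a forkhead factor. The promoter windows of these genes, from 250 bases before to 50 after the RefSeq start (build GRCm38.p6), were searched on both strands for GTNNCC and, after 3 bases of any kind, GNAAC (the X-box), GTTGCC (an X-box arm, which can lie inside an X-box) and GTAAACA (forkhead). A window was at hand for 165 of the 200 ciliary genes. The X-box stood in 30 of them (18.2%), against 3.07% of the 10433 genes tested in lung that had a window and 2.49% of all 27025 genes with one. The arm stood in 82 (49.7%, against 14.5% of tested genes and 14.1% of all), and the forkhead letters in 9 (5.45%, against 3.10% and 4.05%). In Ccno the X-box reads on the strand opposite to the one printed, and in 1110004E09Rik and Iqca it reads on both. The stretches of 6 genes are shown to let the letters be compared between ciliary genes of unlike fold change, each from the gene's strand, 5′ to 3′, with the X-box in capitals.
1110004E09Rik (chr16:90935006-90935055, minus strand): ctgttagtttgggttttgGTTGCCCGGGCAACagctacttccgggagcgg
Ccno (chr13:112987565-112987614, plus strand): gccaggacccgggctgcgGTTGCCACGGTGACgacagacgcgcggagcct
Iqca (chr1:90153505-90153554, minus strand): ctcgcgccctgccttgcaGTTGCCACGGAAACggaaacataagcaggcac
Spag16 (chr1:69826849-69826898, plus strand): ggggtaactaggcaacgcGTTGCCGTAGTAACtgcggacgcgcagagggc
Tekt4 (chr17:25471412-25471461, plus strand): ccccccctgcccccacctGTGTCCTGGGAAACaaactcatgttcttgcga
Dnah17 (chr11:118129347-118129396, minus strand): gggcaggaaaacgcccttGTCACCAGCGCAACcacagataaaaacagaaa

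Of these, Iqca, Ccno, Tekt4 and Spag16 had log2 fold changes between high-score and low-score lungs of 0.63, 0.81, 0.59 and 0.48, 1110004E09Rik had 0.26 and Dnah17 -0.12. The median log2 fold change was 0.35 over the 30 ciliary genes with an X-box in the window and 0.38 over the 135 without. For the arm, the medians were 0.40 over 82 genes with it and 0.35 over 83 without, and for the forkhead letters 0.36 over 9 and 0.38 over 156. These medians ran in different directions, and their differences were not tested. A match describes the sequence and is not a measured binding site. The motifs were searched in all ciliary genes measured, since none passed the threshold in the comparison of the lungs.

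Across the whole transcriptome, 13374 genes were tested between the high-score and low-score lungs with limma-voom, and 0 passed an adjusted p of 0.05 once the scoring genes were left out (0% of those tested). At an unadjusted p under 0.05, 714 genes were higher in the high-score lungs (5.34%) and 446 lower (3.33%). edgeR's quasi-likelihood test called 0 genes as well, and DESeq2 called 8. Of the 3 scoring genes, Rsph1 alone was called, which the rule ensured. What follows gives the sizes of the differences and their spread.

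Most genes of the cilium were higher in the high-score lungs. A list of 249 ciliary genes in 11 roles was used, of which 237 were in the files and 200 passed the filter on low counts. Of these 200, 181 were higher in the high-score lungs, with a median log2 fold change of 0.36, or 1.29-fold, where the median of all genes tested was 0.0071. None passed the adjusted threshold, and 99 were higher and 1 lower at an unadjusted p under 0.05. The score was built from genes of this kind in these libraries, so the direction is a description of the groups and carries no test. The difference of most genes was small: 37 exceeded 0.5 on the log2 scale, and 19 were lower in the high-score lungs. By group medians, 179 of the 200 genes were higher in the middle than in the low-score lungs, but 118 were higher in the high-score than in the middle lungs.

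The dynein motors followed this pattern. Of the outer arm genes, 8 of 10 were higher, with a median log2 fold change of 0.34. Dnah5, an outer arm heavy chain, ranged from 115 to 509.7 scaled CPM in the high-score lungs (median 255) and from 119.6 to 371 in the low-score lungs (median 166), and its log2 fold change was 0.51 ± 0.18 (SE). The groups overlapped over most of their range, although 14 of the 16 high-score lungs lay above the low-score median. Dnah9, the heavy chain of the distal part of the cilium, ranged from 75.01 to 303 scaled CPM in the high-score lungs (median 135) and from 63.2 to 157 in the low-score lungs (median 121), with a log2 fold change of 0.49 ± 0.15. Of the high-score lungs, 14 lay above the low-score median of Dnah9, although the group medians were close. Dnah17, a further outer arm heavy chain singled out because it ran the other way, was lower in the high-score lungs at -0.12 ± 0.13. All inner arm genes tested were higher (11 of 11), with a median of 0.42. Dnah6, an inner arm heavy chain, ranged from 134 to 447 scaled CPM in the high-score lungs (median 256) and from 119 to 286 in the low-score lungs (median 198), a log2 fold change of 0.46 ± 0.14. Dnah10, an inner arm heavy chain, had 0.42 ± 0.14.

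The factors that dock the arms on the doublet were higher in 6 of 6 cases, with a median of 0.44. Ttc25, a docking protein of the outer arm, ranged from 8.04 to 27.7 scaled CPM in the high-score lungs (median 16.8) and from 5.72 to 17.1 in the low-score lungs (median 9.78). Its log2 fold change was 0.58 ± 0.16, and most low-score lungs lay below the high-score median. Armc4, needed for outer arm attachment, had 0.44 ± 0.18. The assembly factors, which fold and load dynein in the cytoplasm, were higher in 11 of 12 cases (median 0.38). The assembly factor with the most counts, Dnaaf5, differed by 0.098 ± 0.11, within its spread, and 1110004E09Rik by 0.26 ± 0.10. Daw1, which carries outer arms into the cilium and was chosen after its values were seen, had the largest value of all ciliary genes at 0.89 ± 0.33, at a level of 1.56 and 0.826 scaled CPM in the median lung of each group.

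Structures that time the motors were higher to a similar degree. Radial spoke genes other than Rsph1, which helped to choose the groups, were higher in 13 of 13 cases, with a median of 0.35. Rsph4a, a partner of RSPH1 in the spoke head, ranged from 22.9 to 77.97 scaled CPM in the high-score lungs (median 46.9) and from 9.88 to 71.3 in the low-score lungs (median 35.1), a log2 fold change of 0.43 ± 0.18. The low-score lungs reached almost as high as the high-score lungs. Cfap206, at the base of a spoke, had 0.52 ± 0.20. In the nexin-dynein regulatory complex and its ruler, 10 of 11 genes were higher (median 0.34), among them Ccdc40 at 0.49 ± 0.15 and Ccdc39 at 0.33 ± 0.16, which together set the spacing of arms along the doublet. Iqca, a protein of this complex chosen after its values were seen, ranged from 11.5 to 47.8 scaled CPM in the high-score lungs (median 24.01) and from 8.52 to 32.4 in the low-score lungs (median 13.6), and its log2 fold change of 0.63 ± 0.18 was the largest of this complex. Central pair genes were higher in 13 of 14 cases (median 0.39). Hydin, a giant central pair protein, ranged from 72.4 to 243 scaled CPM in the high-score lungs (median 128) and from 64.9 to 159.6 in the low-score lungs (median 98.2), a log2 fold change of 0.41 ± 0.15, and Cfap46 differed by 0.48 ± 0.15.

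Tektins and the proteins inside the tubules were higher in 23 of 25 cases, with a median of 0.45. Tekt4, a tektin like the scoring gene Tekt1, ranged from 6.13 to 21.003 scaled CPM in the high-score lungs (median 13.1) and from 4.93 to 15.4 in the low-score lungs (median 7.90), a log2 fold change of 0.59 ± 0.18. Spaca9, an inner protein of the microtubule, ranged from 3.58 to 10.7 scaled CPM in the high-score lungs (median 5.49) and from 1.80 to 7.40 in the low-score lungs (median 3.52) and differed by 0.69 ± 0.16. All 16 high-score lungs lay above the low-score median of Spaca9. Both were chosen after their values were seen. The members of this list with the most counts differed less, 1700094D03Rik by 0.22 ± 0.14 and Cfap20 by 0.19 ± 0.071.

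By the median of their lists, upstream regulators and centriole genes stood closer to the bulk of the transcriptome. Regulators of multiciliogenesis were higher in 7 of 10 cases, with a median of 0.17. E2f4 (-0.03 ± 0.085) and Rfx1 (-0.13 ± 0.15), transcription factors that many cell types use, differed by less than their error, while Ccno, which drives centriole amplification and was chosen after its values were seen, ranged from 0.781 to 5.96 scaled CPM in the high-score lungs (median 2.63) and from 0.389 to 4.50 in the low-score lungs (median 1.91), a log2 fold change of 0.81 ± 0.29. Of the same list, Myb, Fank1 and Mcidas, also chosen after their values were seen, differed by 0.66 ± 0.29, 0.47 ± 0.18 and 0.41 ± 0.27. A total of 3 of the 10 regulators were lower, among them Rfx3 at -0.16 ± 0.27. Genes of the deuterosome and basal body were higher in 19 of 24 cases (median 0.21). Cntrl (0.034 ± 0.081) and Cep192 (0.039 ± 0.078), both of centrosomes in all dividing cells, differed by less than their error. Of 66 other genes of multiciliated cells that were tested, 62 were higher (median 0.38). The 2 with the most counts differed by close to their error or less, Sec14l3 at 0.041 ± 0.096 and Tppp3 at 0.15 ± 0.14. Stk33, a kinase of ciliated cells and sperm chosen after its values were seen, ranged from 7.42 to 37.5 scaled CPM in the high-score lungs (median 15.8) and from 3.81 to 17.3 in the low-score lungs (median 9.11), a log2 fold change of 0.87 ± 0.22. Lrp2bp ran the other way: it ranged from 3.06 to 12.3 scaled CPM in the high-score lungs (median 5.60) and from 3.67 to 17.1 in the low-score lungs (median 8.13), a log2 fold change of -0.59 ± 0.17, and 2 of 16 high-score lungs lay above the low-score median.

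Genes listed here as of cilia in general, motile or not, were nearer to 0. Intraflagellar transport genes, which carry cargo along any cilium, were higher in 20 of 23 cases, with a median of 0.12. Dync2h1, the motor of the return transport, differed by 0.18 ± 0.11 and Ift172 by 0.094 ± 0.069. Traf3ip1, also an intraflagellar transport protein, was counted with the other genes of multiciliated cells. It differed by 0.38 ± 0.11 and was chosen after its values were seen. BBSome genes, which move membrane proteins of the cilium, had a median of 0.06 (5 of 8 higher), with Lztfl1 at 0.12 ± 0.12 and Bbs2 at -0.061 ± 0.10. The median of the 11 ciliary lists ran from 0.17 to 0.45. Whether these lists differ from one another was not tested.

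**Figure D3:**
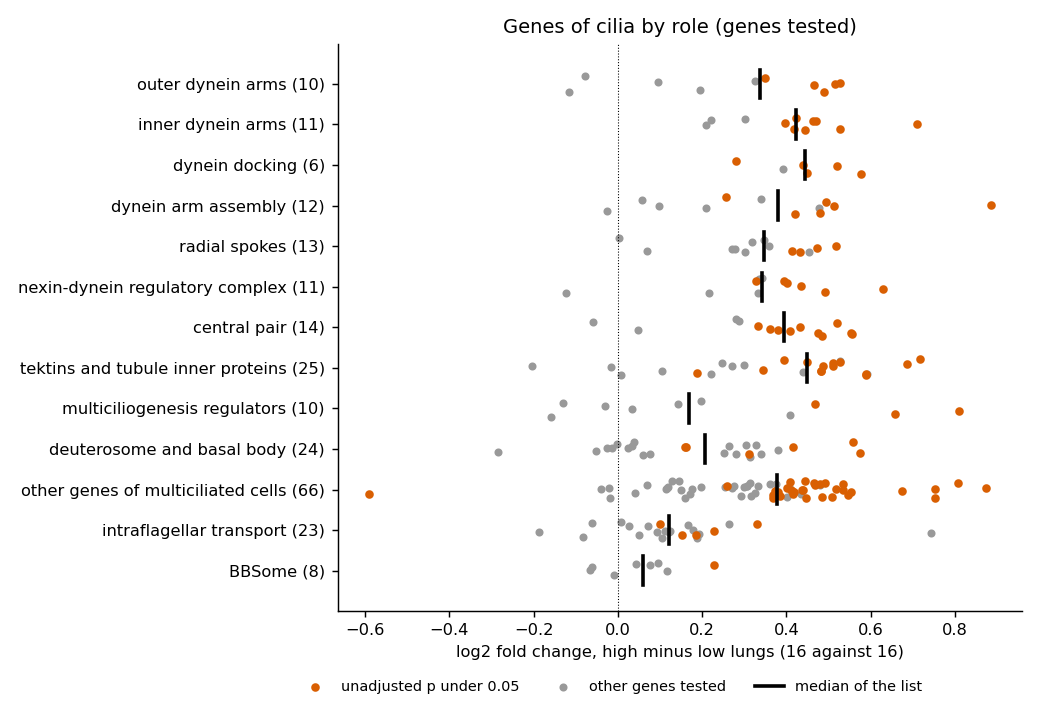
Log2 fold change of each tested gene between 16 high-score and 16 low-score lungs (x axis) by role in the cilium (y axis, number tested in brackets), with the list's median as a bar and genes at an unadjusted p under 0.05 in orange. Axonemal lists have medians from 0.34 to 0.45, and intraflagellar transport and the BBSome lie at 0.12 and 0.06.

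Notch signaling, which steers airway progenitors to secretory rather than ciliated fates, was at -0.069 in the median gene (5 of 17 higher), and at 0.071 when the lungs were grouped by Foxj1 alone. Of the receptors, Notch1 differed by -0.089 ± 0.11 (limma-voom, adjusted p = 0.876), Notch2 by 0.065 ± 0.057 (adjusted p = 0.789) and Notch3 by -0.20 ± 0.16 (adjusted p = 0.758). The target Nrarp, a feedback inhibitor chosen after its values were seen, ranged from 17.1 to 48.1 scaled CPM in the high-score lungs (median 35.4) and from 24.9 to 58.3 in the low-score lungs (median 46.3), a log2 fold change of -0.32 ± 0.13 (adjusted p = 0.489).

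Among the other cells of the airway wall, secretory genes were mostly higher in the high-score lungs, yet none of their lists held a called gene. Club cell genes were higher in 17 of 19 cases with a median of 0.20. Scgb1a1, the main secreted protein of club cells, ranged from 7772 to 22149 scaled CPM in the high-score lungs (median 12725) and from 6117 to 20603 in the low-score lungs (median 9627). Its log2 fold change was 0.26 ± 0.17 (limma-voom, adjusted p = 0.692), and the groups overlapped almost fully. Scgb3a2 differed by 0.27 ± 0.26 and Cyp2f2, a club cell cytochrome P450, by 0.042 ± 0.17. Enzymes of xenobiotic metabolism in the airway had a median of 0.068, with Cyp2b10 at -0.28 ± 0.15 and Cyp2a5 at 0.48 ± 0.43. Goblet and gland genes had the largest median of any list, 0.96 (14 of 16 higher). Muc5b, a gel-forming mucin, ranged from 44.6 to 709 scaled CPM in the high-score lungs (median 269.7) and from 19.3 to 482 in the low-score lungs (median 164), a log2 fold change of 0.82 ± 0.43 (adjusted p = 0.616). Muc5ac, the goblet cell mucin, ranged from 1.93 to 26.7 scaled CPM in the high-score lungs (median 7.18) and from 0.897 to 15.3 in the low-score lungs (median 3.05), or 0.95 ± 0.40 (adjusted p = 0.49), and Agr2, which folds mucins, differed by 1.11 ± 0.51. Lungs of the same group differed over 10-fold in each of these 3 genes.

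Basal cell genes, of stem cells at the base of the airway epithelium, had a median of -0.37 (2 of 7 higher), and Trp63 was listed at 0 in every lung. Pdpn, chosen after its values were seen, is in the basal, alveolar type 1 and lymphatic lists. It had the lowest log2 fold change of each (-1.66), so the same gene counts as lower in all of them. Krt5, the basal keratin, ranged from 0 to 85.6 scaled CPM in the high-score lungs (median 2.60) and from 0 to 179.8 in the low-score lungs (median 9.86). Both groups held lungs without it. The basal median turned to 0.097 with the lungs grouped by Tekt4, Dynlrb2 and Ccdc39 and to 0.41 with Foxj1 alone. Ngfr differed by -0.35 ± 0.42 and Dapl1 by 0.15 ± 0.50. Neuroendocrine genes had a median of -0.011, with Chgb, Scg5 and Syp at -0.011 ± 0.31, -0.031 ± 0.40 and -0.13 ± 0.17. Smooth muscle, which wraps airways and vessels, was higher in 11 of 16 genes (median 0.22). Cnn1, a smooth muscle calponin, ranged from 31.7 to 343 scaled CPM in the high-score lungs (median 63.4) and from 30.2 to 90.5 in the low-score lungs (median 48.6), a log2 fold change of 0.53 ± 0.23 (limma-voom, adjusted p = 0.516), with Acta2 at 0.31 ± 0.15 and Myh11 at 0.49 ± 0.30. Cartilage of the large airways had a median of 0.26 (9 of 13 higher), but its defining genes were low: Acan, Comp and Matn4 had medians of 0.233, 1.005 and 4.96 scaled CPM in the high-score and 0.308, 0.989 and 3.47 in the low-score lungs. Heart-type muscle, which in mice extends into the pulmonary veins, had a median of 0.35, with Tnni3, Myl7 and Myl4 at 0.58 ± 0.32, 0.52 ± 0.33 and 0.63 ± 0.34. The summed level of these muscle genes ran from 497 to 4633 scaled CPM in the high-score and from 609 to 5189 in the low-score lungs, a spread shared by both groups. With the score on TMM-scaled CPM the median of this list was -0.053.

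Genes of the gas-exchange tissue differed less, and more of them were lower than higher in the high-score lungs outside type 2 cells. Alveolar type 2 genes, of the surfactant-producing cell, had a median of 0.02. Sftpc, a surfactant protein, ranged from 4904 to 11315 scaled CPM in the high-score lungs (median 6784) and from 4839 to 8545 in the low-score lungs (median 6509.6), a log2 fold change of 0.097 ± 0.10 (limma-voom, adjusted p = 0.844), with Sftpb at 0.13 ± 0.26 and Sftpa1 at -0.038 ± 0.14. Alveolar type 1 genes, of the thin gas-exchange cell, were higher in 1 of 15 cases, with a median of -0.14. Rtkn2, of type 1 cells, ranged from 273 to 592 scaled CPM in the high-score lungs (median 395) and from 338 to 665 in the low-score lungs (median 459), a log2 fold change of -0.20 ± 0.11 (adjusted p = 0.62). Ager and Hopx differed by -0.089 ± 0.24 and 0.05 ± 0.20, and Cldn18 was listed at 0 in every lung. The summed type 1 level was 5621 to 9273 scaled CPM in the high-score (median 7005) and 6416 to 9722 in the low-score lungs (median 7884), overlapping over most of the range. Endothelial genes were higher in 4 of 17 cases (median -0.087), with Cdh5, the adhesion protein of vessel walls, at -0.20 ± 0.099 (adjusted p = 0.579), Pecam1 at -0.014 ± 0.35 and Tek at -0.96 ± 0.55. Lymphatic genes had a median of -0.19, with Prox1, Flt4 and Lyve1 at 0.16 ± 0.17, -0.19 ± 0.12 and -0.48 ± 0.34. With total counts in place of TMM scaling, type 1, endothelial and lymphatic medians were 0.17, 0.20 and 0.093, below the 0.28 of all genes on that scale. With Foxj1 alone the lymphatic median was 0.045.

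In the connective tissue, fibroblast genes had a median of 0.062 (11 of 18 higher). Of the fibrillar collagens, Col3a1 ranged from 494 to 2523 scaled CPM in the high-score lungs (median 1188) and from 440.1 to 1419 in the low-score lungs (median 733), a log2 fold change of 0.54 ± 0.20 (limma-voom, adjusted p = 0.426), and Col1a1 and Col1a2 differed by 0.44 ± 0.29 and 0.37 ± 0.17. When the lungs were grouped by Tekt4, Dynlrb2 and Ccdc39 instead, Col1a1 differed by -0.35 and Col3a1 by 0.064. Nerve and Schwann cell genes had a median of 0.019 over 6 genes, with Sox10, Mbp and Prx at -0.0078 ± 0.38, 0.20 ± 0.096 and -0.27 ± 0.17. Mesothelium, the lining of the lung surface, was at 0.074, with Msln, Upk3b and Upk1b at 0.074 ± 0.14, -0.0086 ± 0.15 and 0.18 ± 0.27. Adipocyte genes were at 0.079, with Adipoq, Lep and Retn at 0.21 ± 0.52, 0.18 ± 0.62 and -0.26 ± 0.54, and the adipocyte median was -0.11 with the score on TMM-scaled CPM and 0.70 under the grouping by Tekt4, Dynlrb2 and Ccdc39. Mesothelium was at -0.15 under that grouping.

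Genes of blood cells varied widely between single lungs. Neutrophil genes were higher in all 7 cases tested, with a median of 0.52. S100a8, a calcium-binding protein of neutrophils, ranged from 5.51 to 178 scaled CPM in the high-score lungs (median 17.7) and from 2.25 to 41.9 in the low-score lungs (median 11.1), a log2 fold change of 0.90 ± 0.43 (limma-voom, adjusted p = 0.551), and Retnlg and Cxcr2 differed by 1.01 ± 0.40 and 0.50 ± 0.31. Erythroid genes were higher in all 6 tested (median 0.68), but the median was -0.19 with the lungs grouped by Tekt4, Dynlrb2 and Ccdc39 and -0.032 with Foxj1 alone. Hbb-bs, a beta globin, ranged from 0.286 to 14.96 scaled CPM in the high-score lungs (median 1.76) and from 0 to 5.54 in the low-score lungs (median 0.632), a log2 fold change of 2.14 ± 0.61 (adjusted p = 0.356). Hba-a1, Hbb-b1, Hbb-b2 and Hbb-bt were listed at 0, and because globin copies are near-identical the values of this family are uncertain. Alas2 and Slc4a1, of red cell precursors, differed by 0.63 ± 0.29 and 0.86 ± 0.44.

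B cell genes had a median of -0.027, with Ms4a1 and Cd79a at -0.22 ± 0.35 and 0.098 ± 0.38. Plasma cell genes were at 0.26, with Jchain at 0.91 ± 0.54, Mzb1 at 0.38 ± 0.35 and Derl3 at 0.31 ± 0.22. T and NK cell genes were at 0.21 (14 of 15 higher), with Cd3e, Cd3d and Cd3g at -0.012 ± 0.25, 0.35 ± 0.27 and 0.29 ± 0.27. Alveolar macrophages were at 0.10. Chil3, a chitinase-like protein they secrete, ranged from 1.81 to 3104 scaled CPM in the high-score lungs (median 356) and from 1.77 to 754 in the low-score lungs (median 333), and its medians were close, and Marco and Siglecf differed by 0.60 ± 0.58 and 0.13 ± 0.38. Interstitial macrophages and monocytes were at 0.23, with the complement genes C1qa, C1qb and C1qc at 0.23 ± 0.26, 0.14 ± 0.25 and 0.12 ± 0.26. Dendritic cells were at 0.008, with Flt3, Xcr1 and Itgae at 0.15 ± 0.20, -0.053 ± 0.27 and 0.008 ± 0.22. None of these immune genes passed the threshold of limma-voom. With the lungs grouped by Tekt4, Dynlrb2 and Ccdc39, the medians were -0.088 for plasma cells, -0.034 for alveolar and -0.13 for interstitial macrophages, so these too changed sign. On the TMM-scaled score T and NK cell genes were at 0.03.

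Of the cell states, division genes were higher in 15 of 17 cases with a median of 0.29. Cdk1, the kinase that starts mitosis, ranged from 0.708 to 8.06 scaled CPM in the high-score lungs (median 2.94) and from 0.415 to 5.40 in the low-score lungs (median 2.03), a log2 fold change of 0.74 ± 0.25 (limma-voom, adjusted p = 0.393), with Top2a at 0.47 ± 0.19 and Mki67 at 0.29 ± 0.19. Under the grouping by Tekt4, Dynlrb2 and Ccdc39 the median of this list was -0.049. Interferon-induced genes were at 0.19 (17 of 20 higher), at -0.14 under that grouping and at 0.59 with Foxj1 alone. Ifit1, an antiviral protein, ranged from 12.5 to 275 scaled CPM in the high-score lungs (median 21.7) and from 10.7 to 46.2 in the low-score lungs (median 25.04), with the top of the high group far above the top of the low group. Ifit2 and Ifit3 differed by 0.20 ± 0.23 and 0.11 ± 0.34. Clock genes, whose levels follow the hour of collection, were at -0.11, with Arntl, Clock and Npas2 at 0.37 ± 0.27, -0.18 ± 0.29 and 0.12 ± 0.28, and the list was at 0.058 with the score on TMM-scaled CPM. Immediate-early genes, which respond quickly to handling, were at -0.086, with Fos, Fosb and Fosl2 at 0.13 ± 0.24, -0.089 ± 0.34 and -0.11 ± 0.087, and the list was at 0.16 with Foxj1 alone.

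**Figure D4:**
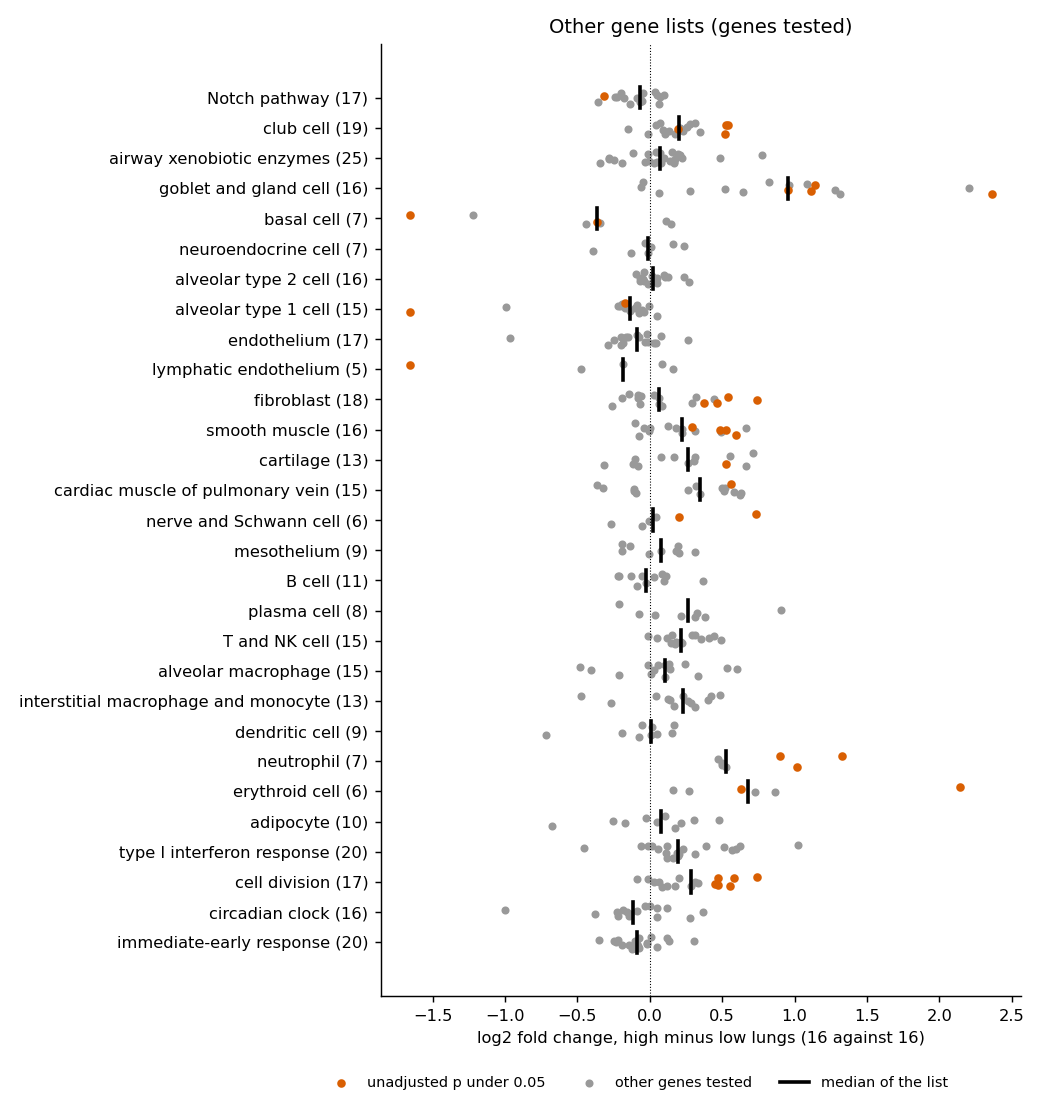
Log2 fold change of each tested gene between 16 high-score and 16 low-score lungs (x axis) by list (y axis, number tested in brackets), drawn as for the ciliary lists. Goblet and gland genes have a median of 0.96, erythroid genes 0.68 (a median that turned negative under other groupings) and neutrophil genes 0.52, and alveolar and vascular lists lie between -0.19 and 0.02.

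The genes with the smallest p outside the scoring genes, chosen after their values were seen, were of mixed kind. Ruvbl1, an ATPase of chromatin remodeling and of the assembly of large complexes that include dynein arms, ranged from 24.9 to 34.9 scaled CPM in the high-score lungs (median 30.5) and from 16.9 to 29.2 in the low-score lungs (median 24.6), a log2 fold change of 0.32 ± 0.067 (limma-voom, adjusted p = 0.19). All 16 high-score lungs lay above the low-score median of Ruvbl1, although the ranges overlapped. Pak1, a kinase of the cytoskeleton, ranged from 22.2 to 35.7 scaled CPM in the high-score lungs (median 30.5) and from 16.7 to 37.5 in the low-score lungs (median 21.95), or 0.43 ± 0.094 (adjusted p = 0.232). Elof1, a transcription elongation factor, differed by 0.41 ± 0.095, Misp, which orients the mitotic spindle, by 0.61 ± 0.14, and Efcab11 by 0.83 ± 0.19, each with an adjusted p of 0.232. In the other direction, Fgf10, the growth factor of lung mesenchyme that drives branching, ranged from 14.2 to 28.6 scaled CPM in the high-score lungs (median 18.3) and from 18.7 to 47.3 in the low-score lungs (median 26.7), a log2 fold change of -0.46 ± 0.11 (adjusted p = 0.232). A total of 2 of 16 high-score lungs lay above the low-score median of Fgf10. Ankrd24 differed by -0.43 ± 0.097 (adjusted p = 0.232), Tgfbr3, a TGF-beta co-receptor, by -0.31 ± 0.077, and Svep1, an extracellular matrix protein, by -0.37 ± 0.094. DESeq2 called Ruvbl1, Elof1, Misp, Ubash3a and 1500009L16Rik as higher and Fgf10, Ankrd24 and Gm12185 as lower.

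The livers and kidneys of the same mice were not used to form the groups, and so allow a test of whether the strains behind high-score and low-score lungs differ elsewhere. In liver, 0 of 10179 genes were called by limma-voom (0%), 611 (6%) reached an unadjusted p under 0.05, edgeR called 0 and DESeq2 called 2. In kidney, 0 of 11928 genes were called (0%), 1077 (9.03%) reached an unadjusted p under 0.05, edgeR called 0 and DESeq2 called 4. The ciliary genes did not lean to one side there. In kidney, whose tubule cells carry a single non-motile cilium, 51 of 106 were higher (median -0.0086), with 4 higher and 7 lower at an unadjusted p under 0.05. In liver 29 of 55 were higher (median 0.013).

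Rsph1, as a scoring gene, is given for kidney as a description. Its kidney level, which the rule did not use, was 0.444 to 3.01 CPM in mice with high-score lungs (median 1.15) and 0 to 1.90 in mice with low-score lungs (median 0.406). The log2 fold change was 1.34 ± 0.32, the groups overlapped, and Rsph1 did not pass the adjusted threshold of limma-voom in kidney. Itpr3, a calcium release channel, had among the smallest p in kidney: it ranged from 20.9 to 38.9 CPM in mice of the high group (median 29.6) and from 10.4 to 29.6 in mice of the low group (median 19.9), a log2 fold change of 0.48 ± 0.097 (adjusted p = 0.116). Ext2, which builds heparan sulfate, differed by 0.25 ± 0.048 (adjusted p = 0.116). Slc41a2, a magnesium transporter, ranged from 54.3 to 263 CPM in mice of the high group (median 80.2) and from 36.5 to 89.3 in mice of the low group (median 55.9) in kidney, a log2 fold change of 0.79 ± 0.18 (adjusted p = 0.193), and in liver differed by 1.03 ± 0.26 (adjusted p = 0.569). DESeq2 called it in both tissues. In lung its log2 fold change was 0.13 (adjusted p = 0.785). All genes of this paragraph but Rsph1 were chosen after their values were seen.

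The number of genes called depended on which lungs counted as high. When the lungs were grouped by 3 other genes of the motile cilium, Tekt4, Dynlrb2 and Ccdc39, 7 of 16 high and 11 of 16 low lungs were shared with the groups above, 3 lungs changed sides, and limma-voom called 174 genes higher (1.31% of those tested) and 100 lower (0.751%). Among them were 75 of 197 ciliary genes, all higher, and the ciliary median was 0.50. Genes of the same kind formed these groups in the same libraries, so this too is a description. Library make-up differed here as well: every lung with over 40% of its counts without Rn45s on Lars2 was in the low group of this grouping. Whether the genes called with these groups, ciliary or not, go with library make-up was not tested. Dnah6 differed by 0.67 ± 0.12 in this grouping and Armc4 by 0.83 ± 0.17, against 0.46 ± 0.14 and 0.44 ± 0.18 before. Outside the cilium, Scgb1a1 was called as higher at 0.57 ± 0.11 (adjusted p = 0.00593), where the score of Foxj1, Tekt1 and Rsph1 gave 0.26 ± 0.17. The vessel genes Cdh5 (-0.32 ± 0.08, adjusted p = 0.0286) and Flt4 (-0.41 ± 0.089, adjusted p = 0.0129) were called as lower, as was Tgfb1, a growth factor (-0.73 ± 0.16, adjusted p = 0.0148). The intraflagellar transport genes Ift140, Ift80, Ttc26, Dync2h1 and Ift88 were called as higher and Ift27 as lower. Tgfb1 and these transport genes were chosen after their values were seen.

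Other scales of the score also added calls. With the same 3 scoring genes on TMM-scaled CPM, 13 high and 13 low lungs were shared, 1 changed sides, and 44 genes were called higher (0.329% of those tested) and 2 lower (0.0149%), 28 of the higher ones ciliary. With Foxj1 alone over totals without Rn45s and Lars2, 8 high and 10 low lungs were shared, 5 changed sides, and 34 genes were called higher (0.253%) and 4 lower (0.0298%), 13 of the higher ones ciliary. With the score as a continuous measure over all 47 lungs, 22 genes were called higher (0.165%) and 2 lower (0.015%), 8 of the higher ones ciliary. Dnah9, Dnaic2 (an outer arm intermediate chain), Spaca9 and Traf3ip1 (an intraflagellar transport protein) were called in 5 of the 8 alternative settings that called any gene in lung. Each of these settings grouped or ordered the same lungs by ciliary genes, so this recurrence is a description and not independent support. With Foxj1 alone, Kif19a, a kinesin that limits the length of motile cilia and was chosen after its values were seen, differed by 0.81 ± 0.12, against 0.53 ± 0.17 with the score. Ciliary genes formed each of these groupings in the same libraries, so the ciliary genes called here are a description and carry no test. The median log2 fold change of the ciliary genes was 0.47 with the TMM-scaled score and 0.40 with Foxj1 alone.

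**Figure D5:**
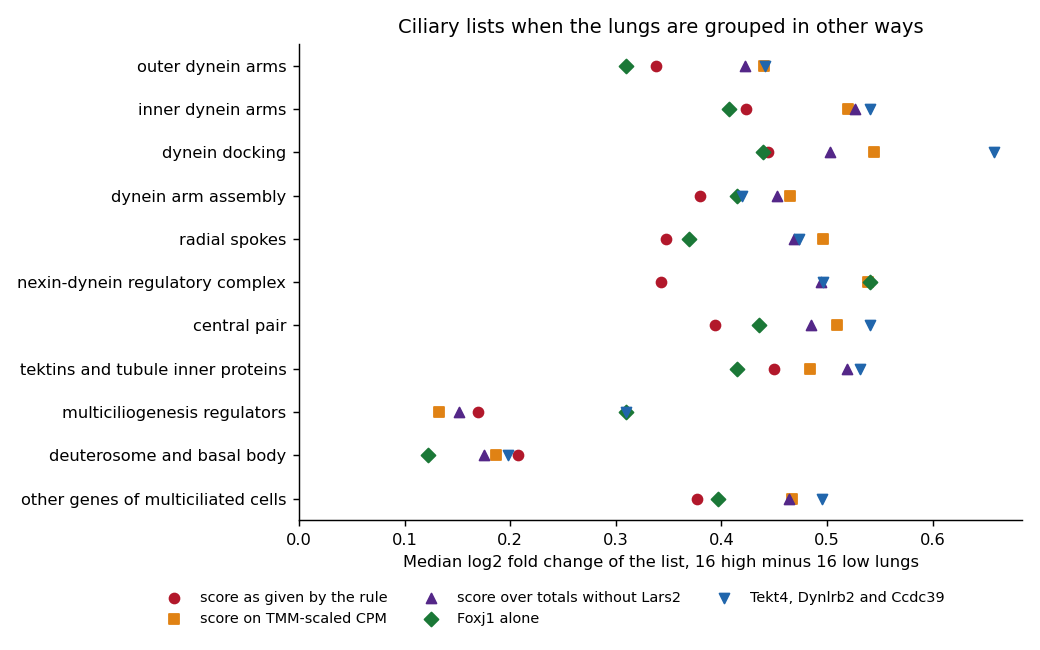
Median log2 fold change of each ciliary list (x axis, from 0) when 16 high and 16 low lungs were chosen in 5 ways. Axonemal lists lie between 0.31 and 0.66 under each choice, basal body genes between 0.12 and 0.21, and regulators between 0.13 and 0.31, level with the outer arms when Foxj1 alone was used.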

How the data were processed

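RNA-seq was done on lung, liver and kidney of 47 mice. The authors aligned reads with STAR 2.5.3a to a genome built for each strain on the mm9 reference, counted uniquely aligned reads per gene with RSEM, and deposited, per library, expected counts, TPM and FPKM for 24423 genes. Expected counts were rounded to whole numbers, and Rn45s was dropped. TPM was used in 1 alternative and FPKM, as deposited, was not used. A gene entered a fit if it passed 1 CPM in 30% or more of that fit's libraries. Tests were run with limma-voom (limma 3.58.1, TMM factors from edgeR 4.0.16, R 4.3.3), high minus low, with Benjamini-Hochberg adjustment over all genes and a call at 0.05. edgeR and DESeq2 1.42.0 were alternatives. The paper fitted sequencing batch as a covariate, but the labels do not assign libraries to batches, so batch could not be used here. How the batches are spread over the groups is unknown. Depth and library make-up were compared with 100000 permutations. On simulated data for the lung comparison, 180 of 200 genes changed 2-fold among 13376 were recovered, with 12 false calls. Genes of ciliary lists were named as the 2 members with the most counts, plus members singled out as lower in the high-score lungs, and genes of other lists as the first 3 listed members that were tested; others are marked as chosen after their values were seen. A gene that this rule names is not reported here. The groups, members and lists were chosen with earlier results of these data known.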

Additional observations from a re-analysis of the deposited data

How the results depend on the processing

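No gene was called in lung, liver or kidney with edgeR, DESeq2 size factors, no filter or a filter at 5 CPM, an adjusted p of 0.1 or 0.01, a fold threshold, total count or the share of Rn45s as a covariate, groups of 12, 3 levels over 47 libraries, the 15 libraries in neither group or without the mice whose lung had over 40% of counts on Lars2. In lung, genes called numbered 8 with DESeq2, 27 with total counts without TMM (all higher), 1 with log2(TPM + 1), 24 with the continuous score over 47 libraries, 274 with groups by Tekt4, Dynlrb2 and Ccdc39, 46 with the score on TMM-scaled CPM, 16 with the score over totals without Rn45s and Lars2, and 38 with Foxj1 alone. The last pair, the Rn45s covariate and the omission of Lars2-rich lungs were chosen after seeing the data. In liver, genes called numbered 2 with DESeq2, 2 with 23 against 23 and 1 with the continuous score, and in kidney 4 with DESeq2, and the other settings called 0 in both. The cause of these changes was not tested. The ciliary median in lung was 0.65 with log2(TPM + 1) and moved by less than 1 SD between lungs under the others. Of 2121 alternative values for 113 named genes, 129 moved by more than 1 SD. No paired analysis was possible because the high-score and low-score lungs come from different mice and strains. The self-test made calls at this group size for 2-fold changes, and every ciliary gene tested differed by less than that. It gave all genes the same spread and all lungs the same library make-up, so it does not give the power for these data.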

Other observations

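A pair of neighbors of Rsph1 on chromosome 17 were also higher in the high-score lungs in the fitted values. Rsph1 lies at chr17:31391964-31414301 on the minus strand (build NCBIM37, the mm9 assembly). Of 9 genes within 200 kb of it that the files hold, 6 including Rsph1 passed the filter on low counts. Ubash3a, a regulator of T cell signaling at chr17:31344818-31379147 on the plus strand, ranged from 1.65 to 55.7 scaled CPM in the high-score lungs (median 4.24) and from 0.899 to 4.27 in the low-score lungs (median 2.26), a log2 fold change of 1.57 ± 0.56 (limma-voom, adjusted p = 0.408). DESeq2 called it. Slc37a1, a sugar-phosphate transporter at chr17:31432428-31487641 on the plus strand, ranged from 1.23 to 12.9 scaled CPM in the high-score lungs (median 3.65) and from 0.830 to 7.05 in the low-score lungs (median 1.93), a log2 fold change of 0.83 ± 0.33 (adjusted p = 0.461), and over all 47 lungs with the score as a continuous measure its adjusted p was 0.0481. Tff2, a secreted trefoil peptide of mucous cells, differed by 0.96 ± 0.57, Abcg1, a lipid transporter, by 0.0055 ± 0.1 and Pde9a, a phosphodiesterase, by -0.24 ± 0.36. When the lungs were grouped by Tekt4, Dynlrb2 and Ccdc39, Slc37a1 differed by -0.22 ± 0.31 and Ubash3a by 0.24 ± 0.49. Both neighbors were chosen after their values were seen, and whether strains differ at this locus was not tested.

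Krt4, a keratin of stratified squamous epithelium chosen after its values were seen, ranged from 0 to 2242 scaled CPM in the high-score lungs (median 1.49) and from 0 to 4091 in the low-score lungs (median 109). Lungs without it and lungs rich in it stood in both groups, and the log2 fold change was -1.20 ± 1.99 (limma-voom, adjusted p = 0.919).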
